A study of Rattus norvegicus with 12 samples.

Results

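A set of 10 genes of innate sensing and the acute phase response were followed in the rat bladder: the receptors Tlr2 and Tlr4, their helpers Cd14 and Lbp, the secreted proteins Lcn2, Ptx3, Hp and Cp, the protease inhibitor Slpi and the transcription factor Cebpd. They were chosen by name, with earlier results of these data known, and found through the RefSeq accession of each array probe. All 10 of 10 had a probe, 12 probes in all, and all 10 were among the 20426 features tested, each a gene or an unnamed transcript. Lcn2 passed the filter on dim probes through the old groups alone, since it was well above background on only 1 of the 4 arrays of young rats.

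Total RNA of the bladder body of 12 male Fischer 344 rats was measured on 1-colour arrays, each array holding 1 animal. Old restricted rats (n = 4) were 25 to 28 months old, were given food on 3 days of each week once they were 6 weeks old, and took in about 40% fewer calories than freely fed ones, per the labels. Old freely fed rats (n = 4) were 25 to 28 months old, and young freely fed rats (n = 4), called young rats in the following, were 6 months old, and both had food at all times. All animals were of 1 inbred strain and 1 sex, and no genotype was altered. Inflammatory changes of the ageing bladder, and a preventive effect of restriction, are the question named in the title of the series.

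Toll receptors are membrane proteins of the innate immune system that recognise molecules of microbes and of damaged tissue. TLR4 detects bacterial lipopolysaccharide, which the plasma protein LBP carries to CD14 and on to the receptor, and TLR2 detects bacterial lipopeptides. Both signal through NF-kappa-B, and together with interleukins and the C/EBP factors this induces acute phase proteins, which bind microbes, iron, copper or haemoglobin or restrain proteases. The bladder lining can meet bacteria of the urine, and its epithelium and resident macrophages carry this system.

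The start regions of the genes are shown because the NF-kappa-B and C/EBP factors named above bind short motifs near the starts of many such genes. RefSeq start regions on the GRCr8 assembly, 250 bases before to 50 bases after the start, were at hand for 6 of the 10 genes (Tlr2, Tlr4, Cd14, Lcn2, Ptx3 and Cp). Both strands were searched for the C/EBP motif TTGCNNAA and for the kappa B consensus. The C/EBP motif matched in 3 of these 6 windows (Lcn2, Ptx3 and Cp) and in 10.6% of all 33469 windows, and the kappa B consensus matched in 3 of 6 (Tlr2, Lcn2 and Ptx3) and in 7.5% of all windows. Such a match describes the letters and is not a measured binding site. Windows of 4 genes are printed, with matches in capitals: Ptx3 and Lcn2 match both motifs, Tlr2 matches the kappa B consensus alone, and Tlr4, which rose with age, matches neither.
Ptx3, chr2:152797313-152797612, plus strand: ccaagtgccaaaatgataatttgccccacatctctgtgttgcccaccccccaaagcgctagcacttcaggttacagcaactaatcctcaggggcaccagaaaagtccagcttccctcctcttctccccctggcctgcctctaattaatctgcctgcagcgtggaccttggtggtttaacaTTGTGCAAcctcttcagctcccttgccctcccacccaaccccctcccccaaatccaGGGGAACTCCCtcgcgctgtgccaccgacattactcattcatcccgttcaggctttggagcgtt
Lcn2, chr3:36081731-36082030, minus strand: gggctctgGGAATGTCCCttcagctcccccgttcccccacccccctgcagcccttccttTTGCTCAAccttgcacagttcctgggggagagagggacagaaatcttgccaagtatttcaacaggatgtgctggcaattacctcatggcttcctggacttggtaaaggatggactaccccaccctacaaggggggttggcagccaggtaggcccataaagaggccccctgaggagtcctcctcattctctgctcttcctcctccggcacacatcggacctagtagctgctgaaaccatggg
Tlr2, chr2:171504508-171504807, minus strand: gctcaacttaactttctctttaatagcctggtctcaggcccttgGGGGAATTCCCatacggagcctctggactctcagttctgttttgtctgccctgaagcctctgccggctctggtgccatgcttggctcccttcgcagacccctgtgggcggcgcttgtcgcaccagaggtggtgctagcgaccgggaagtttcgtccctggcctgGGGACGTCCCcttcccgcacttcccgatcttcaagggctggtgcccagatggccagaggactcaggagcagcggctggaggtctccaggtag
Tlr4, chr5:85160997-85161296, plus strand: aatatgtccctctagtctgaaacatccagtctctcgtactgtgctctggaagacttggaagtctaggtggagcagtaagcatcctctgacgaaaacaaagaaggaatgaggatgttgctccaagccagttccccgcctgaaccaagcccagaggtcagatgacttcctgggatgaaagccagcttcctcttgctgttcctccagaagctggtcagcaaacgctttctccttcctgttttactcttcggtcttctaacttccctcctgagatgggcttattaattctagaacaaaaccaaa
In Ptx3 the C/EBP match began 70 bases and the kappa B match 14 bases before the start. In Lcn2 they began 191 and 242 bases before the start. In Tlr2 the kappa B consensus matched in 2 places, 206 and 42 bases before the start, and no match of the 2 motifs overlapped another motif. Some kappa B matches also read as the consensus on the other strand or 1 base on, and such runs are capitalised as 1.

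Some facts of the arrays touch every value. Arrays of young rats lay in array row 1 of slide 1, and those of old freely fed rats in row 2 of that slide. Arrays of old restricted rats lay in row 1 of slide 2, which was scanned separately. Age and array row therefore cannot be told apart, nor can restriction and array row, slide or scan. Probes well above background numbered 22567 to 23200 of 30367 in old restricted, 23373 to 24644 in old freely fed and 21660 to 22294 in young rats, and the negative control spots had a scaled mean log2 signal of -9.81 to -9.54 in old restricted, -10.5 to -9.97 in old freely fed and -9.18 to -8.94 in young rats. Replicate numbers are those of the source names in the labels, and the sample titles use a different numbering. Old freely fed replicate 2 stood apart on the first principal component of all genes, where it scored 51.9 and the other 3 of its group scored 7.28 to 13.7, so counts of list members called with age or restriction are also given without it where they changed. Markers of the labelled tissue were present: all 10 urothelial markers tested, uroplakins and keratins among them, were above background on all 12 arrays, as were 7 of 8 smooth muscle markers.

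Levels are log2 processed signals minus the 75th percentile of the array, listed by replicate 1 to 4 within each group, and means are given with SD over n = 4 animals. Differences are log2 differences from limma with 95% intervals, and a gene was called where its adjusted p (Benjamini-Hochberg over all 20426 features) was under 0.05. A probe's level depends on its sequence, so levels are not compared between genes. The number of arrays limits the precision.

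With age, old freely fed against young rats, Slpi rose 2.45-fold, Ptx3 rose 2.37-fold and Tlr4 rose 1.38-fold. That made 3 of 10 genes called higher and 0 called lower by limma, beside 1.63% of all features called higher and 2.10% called lower. At an unadjusted p under 0.05, 5 were higher and 0 lower, beside 8.32% of all features higher and 16.3% lower. The groups did not overlap in 4 of 10 genes (Tlr4, Lcn2, Ptx3 and Slpi), all higher, beside 5.69% of all features not overlapping and higher and 9.37% not overlapping and lower. The median log2 difference of the 10 genes was 0.44, beside -0.05 over all features, and 10 of 10 differences were above 0, beside 38.0% of all features. Without old freely fed replicate 2 the median was 0.33 and 0 of 10 genes were called by limma. Such a loss was not particular to that animal: of 12 fits that each left out 1 animal, only 4 called any of the 10 genes. In a fit to the arrays of these 2 groups alone 0 of 10 were called, with adjusted p-values of 0.053 for Slpi, 0.0776 for Tlr4 and 0.0881 for Ptx3. The 332 higher and 428 lower features behind the shares numbered 364 and 152 with quantile scaling, 356 and 306 with median centring, and 288 and 124 with normexp background correction and quantile scaling, while the 10 genes kept the sign of their differences under each of these.

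With restriction, old restricted against old freely fed rats, Slpi alone of the 10 was called, and it was 2.58-fold lower in restricted animals. Beside 0 of 10 higher and 1 of 10 lower stand 1.62% of all features called higher and 2.02% called lower. At an unadjusted p under 0.05, 0 were higher and 6 lower, beside 11.5% of all features higher and 9.15% lower. The groups did not overlap in 3 of 10 genes (Lcn2, Hp and Slpi), all lower, beside 6.05% of all features not overlapping and lower and 8.64% not overlapping and higher. The median log2 difference was -0.40, beside 0.02 over all features, and 10 of 10 differences were below 0, beside 42.6% of all features. Both comparisons use the same 4 old freely fed animals, so a high value in one of these moves both, with opposite sign. Without old freely fed replicate 2 the median was -0.30 and Slpi was still called, while in a fit to the arrays of these 2 groups alone it was not (adjusted p = 0.0666). Features called numbered 331 higher and 413 lower, and 580 and 325 with normexp background correction, under which the 10 differences also stayed below 0.

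Between old restricted and young rats limma called 0 of 10 genes, and 0 had an unadjusted p under 0.05, beside 3.19% of all features called higher and 5.99% called lower, and 10.1% higher and 16.0% lower at that unadjusted p. The groups did not overlap in Ptx3, higher in old restricted rats, and in Cd14, lower, beside 7.16% of all features not overlapping and higher and 10.8% not overlapping and lower. The median log2 difference of the 10 genes was -0.02, beside -0.01 over all features, with 4 of 10 differences above 0. This comparison shares its animals with each of the others. Its groups differed in age and diet and also in slide and scan, and these cannot be told apart here. Features called numbered 651 higher and 1223 lower, 826 and 880 with quantile scaling, and 684 and 821 with normexp and quantile scaling.

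**Figure D1:**
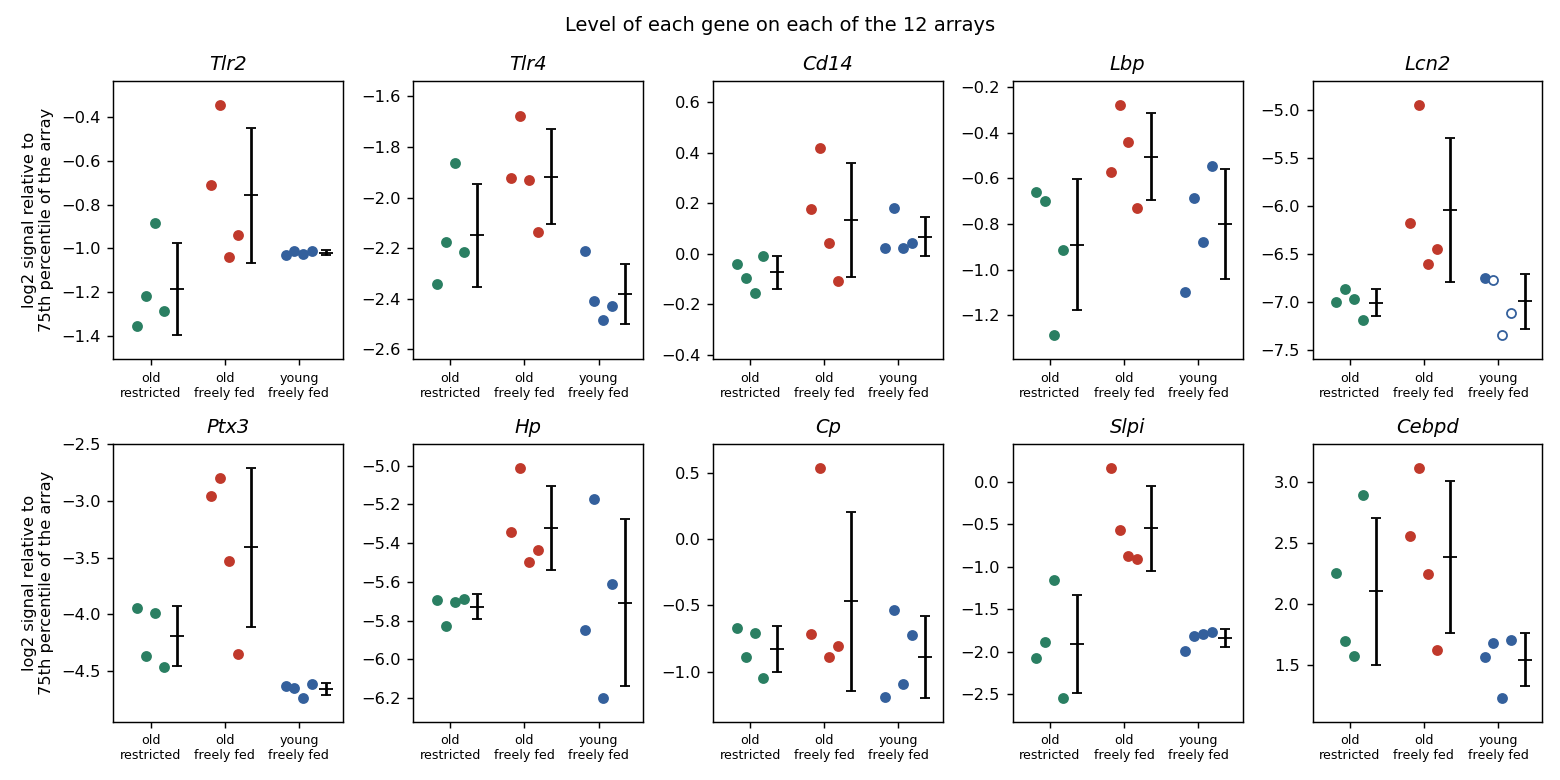
Level of the 10 genes on each of the 12 arrays, as log2 signal relative to the 75th percentile of the array, with the animals of each group from replicate 1 on the left to replicate 4 on the right, filled where the probe was well above background, and the mean and SD of the 4 animals as bars. Old freely fed replicate 2, the second red point, is the highest of the 12 in 9 of 10 panels, all but Slpi.

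Tlr4 encodes the lipopolysaccharide receptor. It lay at -2.34, -2.17, -1.86 and -2.22 in old restricted, at -1.92, -1.68, -1.93 and -2.14 in old freely fed and at -2.21, -2.41, -2.48 and -2.43 in young rats. All 4 old freely fed animals lay above all 4 young ones, and old restricted animals spread over both ranges. With age Tlr4 rose by 0.47 (SE 0.11, adjusted p = 0.0464 with limma), with means of -1.92 ± 0.19 in old freely fed and -2.38 ± 0.12 in young rats. The call stood close to the threshold. It held without old restricted replicate 3 (adjusted p = 0.0305) or old freely fed replicate 4 (0.037) and was lost without any one of the other 10 animals (0.0554 to 0.109). With restriction the difference was -0.23 (interval -0.48 to 0.02, adjusted p = 0.275), and between old restricted and young rats it was 0.23 (-0.01 to 0.48, adjusted p = 0.216).

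Tlr2, the lipopeptide receptor, lay at -1.35, -1.22, -0.88 and -1.28 in old restricted, at -0.71, -0.35, -1.04 and -0.94 in old freely fed and at -1.03, -1.01, -1.03 and -1.01 in young rats. The young animals lay within 0.02 of each other, while 3 of 4 old restricted animals lay under all of them. Among old freely fed animals replicate 2 was far above the rest. Neither difference passed the test: it was 0.26 with age (interval -0.04 to 0.56, adjusted p = 0.262) and -0.43 with restriction (-0.72 to -0.13, adjusted p = 0.11). Without old freely fed replicate 2 these were 0.12 and -0.29. Old restricted and young rats differed by -0.17 (-0.46 to 0.13, adjusted p = 0.475).

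Cd14, the co-receptor that passes lipopolysaccharide on to TLR4, lay at -0.04, -0.09, -0.15 and -0.01 in old restricted, at 0.18, 0.42, 0.04 and -0.11 in old freely fed and at 0.02, 0.18, 0.02 and 0.04 in young rats. Every old restricted animal lay under every young one, though only by a small margin, and old freely fed animals spanned both. The difference with age was 0.07 (interval -0.14 to 0.27, adjusted p = 0.688), and -0.03 without old freely fed replicate 2. With restriction it was -0.21 (-0.41 to -0.01, adjusted p = 0.232), and between old restricted and young rats -0.14 (-0.34 to 0.06, adjusted p = 0.362).

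Lbp, the carrier of lipopolysaccharide in plasma, lay at -0.66, -0.70, -1.29 and -0.92 in old restricted, at -0.57, -0.28, -0.44 and -0.73 in old freely fed and at -1.10, -0.68, -0.88 and -0.54 in young rats. The groups overlapped in all 3 comparisons, with old freely fed replicate 2 highest and old restricted replicate 3 lowest of the 12. The difference was 0.30 with age (interval -0.04 to 0.63, adjusted p = 0.258) and -0.38 with restriction (-0.72 to -0.05, adjusted p = 0.188). For old restricted against young rats it was -0.09 (-0.42 to 0.25, adjusted p = 0.751).

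Slpi encodes the secretory leukocyte protease inhibitor, which blocks neutrophil elastase at epithelial surfaces. It lay at -2.08, -1.88, -1.15 and -2.54 in old restricted, at 0.16, -0.57, -0.88 and -0.91 in old freely fed and at -1.99, -1.81, -1.79 and -1.77 in young rats. All 4 old freely fed animals lay above all 8 others, replicate 1 by the widest margin, and the old restricted animals scattered on both sides of the tightly grouped young ones. With age Slpi rose by 1.29 on the log2 scale (SE 0.28, adjusted p = 0.035), with means of -0.55 ± 0.50 in old freely fed and -1.84 ± 0.10 in young rats. With restriction it fell by 1.36 (SE 0.28, adjusted p = 0.023), with a mean of -1.91 ± 0.58 in old restricted rats. Old restricted and young rats differed by -0.07, with an interval from -0.68 to 0.53 (adjusted p = 0.893).

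The 2 calls of Slpi did not hold equally well when single animals were left out. The call with age held without old restricted replicate 3 or 4 or old freely fed replicate 1 or 4 (adjusted p = 0.0181 to 0.042) and was lost without any one of the other 8 animals (0.0501 to 0.0813). The call with restriction held without 9 of 12 animals and was lost without old restricted replicate 1 (0.0558), 2 (0.0622) or 4 (0.0615). Over these leave-outs the log2 difference stayed within 1.05 to 1.41 with age and within -1.62 to -1.13 with restriction.

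**Figure D2:**
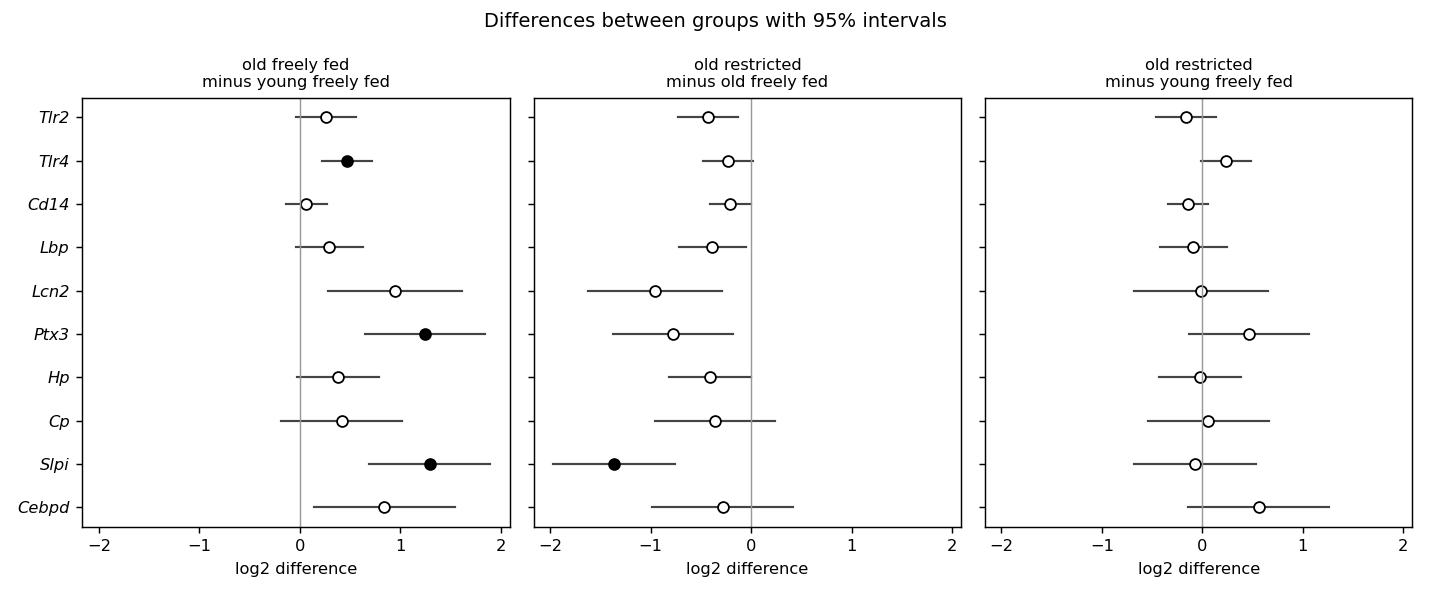
Log2 differences of the 10 genes with 95% intervals in the 3 comparisons, where filled points passed the test at an adjusted p of 0.05. With age, Tlr4, Ptx3 and Slpi passed, with restriction Slpi alone passed, and between old restricted and young rats none passed.

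Ptx3 encodes the long pentraxin, a secreted pattern recognition protein that inflamed tissue makes locally. Its brighter probe lay at -3.94, -4.36, -3.99 and -4.47 in old restricted, at -2.96, -2.80, -3.53 and -4.35 in old freely fed and at -4.63, -4.64, -4.73 and -4.61 in young rats. All 8 old animals of either diet lay above all 4 young ones, which were within 0.12 of each other. Replicate 4 of the old freely fed rats stayed with the restricted animals, and the other 3 of its group lay above every other animal. With age Ptx3 rose by 1.25 (SE 0.27, adjusted p = 0.0363), with means of -3.41 ± 0.70 in old freely fed and -4.65 ± 0.05 in young rats. The call held without old freely fed replicate 4 or old restricted replicate 3 or 4 (adjusted p = 0.00528 to 0.048) and was lost without any one of the other 9 animals (0.0505 to 0.0828). With restriction the difference was -0.78 (interval -1.38 to -0.18, adjusted p = 0.139), and it passed without old freely fed replicate 4, at -1.09 (adjusted p = 0.0123). For old restricted against young rats it was 0.47 (-0.13 to 1.06, adjusted p = 0.306).

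The second, dimmer Ptx3 probe did not give the same picture. It lay at -7.26, -8.13, -8.23 and -8.46 in old restricted, at -6.92, -6.99, -7.52 and -7.42 in old freely fed and at -8.43, -3.74, -8.88 and -8.04 in young rats. This probe had 1 spot on every array. It was well above background on 1 of 4 old restricted, 4 of 4 old freely fed and 1 of 4 young arrays, and its level in young replicate 2 exceeded all others by a wide margin. Its difference with age was 0.06 (SE 0.89, adjusted p = 0.972), so the call of Ptx3 rests on the brighter probe. The mean over both probes gave 0.65 with age (adjusted p = 0.427). With restriction the dimmer probe gave -0.81 (SE 0.89, adjusted p = 0.638), of the same sign as the brighter one. Between old restricted and young rats it gave -0.75 (adjusted p = 0.635), of the opposite sign.

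Lcn2 encodes lipocalin 2, which withholds iron from bacteria by binding their siderophores. It lay at -7.00, -6.86, -6.97 and -7.19 in old restricted, at -6.18, -4.95, -6.60 and -6.44 in old freely fed and at -6.75, -6.77, -7.34 and -7.11 in young rats. All 4 old freely fed animals lay above all 8 others, replicate 2 by far the most. The difference was 0.95 with age (interval 0.28 to 1.61, adjusted p = 0.0921) and -0.96 with restriction (-1.62 to -0.29, adjusted p = 0.108). Neither passed, and without old freely fed replicate 2 they were 0.58 and -0.60. Old restricted and young rats differed by -0.01 (-0.68 to 0.65, adjusted p = 0.987).

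The level of Lcn2 was near the lower end of what the arrays measured. The dimmest signal well above background was -7.73 to -7.47 on arrays of old restricted, -8.27 to -7.83 on those of old freely fed and -7.17 to -6.89 on those of young rats. With normexp background correction the difference of Lcn2 was 0.31 with age (adjusted p = 0.205) and -0.33 with restriction (adjusted p = 0.204). The part of background in these values was not tested.

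Hp, haptoglobin, which binds free haemoglobin, lay at -5.69, -5.83, -5.70 and -5.69 in old restricted, at -5.34, -5.01, -5.50 and -5.43 in old freely fed and at -5.85, -5.17, -6.20 and -5.61 in young rats. Every old freely fed animal lay above every old restricted one, and young rats spread over both ranges and below them. The difference with age was 0.38 (interval -0.02 to 0.79, adjusted p = 0.229) and with restriction -0.41 (-0.81 to 0.00, adjusted p = 0.247). Old restricted against young rats gave -0.02 (-0.43 to 0.39, adjusted p = 0.957).

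Cp encodes ceruloplasmin, the copper-carrying ferroxidase of plasma. Its brighter probe lay at -0.67, -0.89, -0.71 and -1.04 in old restricted, at -0.72, 0.54, -0.89 and -0.80 in old freely fed and at -1.19, -0.53, -1.10 and -0.73 in young rats. Only old freely fed replicate 2 stood apart, and the rest of all groups overlapped. The difference with age was 0.42 (interval -0.18 to 1.02, adjusted p = 0.369) and 0.08 without that animal. With restriction it was -0.36 (-0.96 to 0.24, adjusted p = 0.485) and -0.02 without that animal.

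The dimmer Cp probe lay at -4.19, -4.26, -4.27 and -4.33 in old restricted, at -4.27, -3.46, -4.40 and -4.45 in old freely fed and at -4.64, -4.51, -4.61 and -4.24 in young rats. Again old freely fed replicate 2 was the highest of the 12. This probe gave 0.35 with age (adjusted p = 0.263) and -0.12 with restriction (adjusted p = 0.75), so the probes of Cp had the same sign in both comparisons. In old restricted against young rats the brighter probe gave 0.06 (adjusted p = 0.916) and the dimmer one 0.23.

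**Figure D3:**
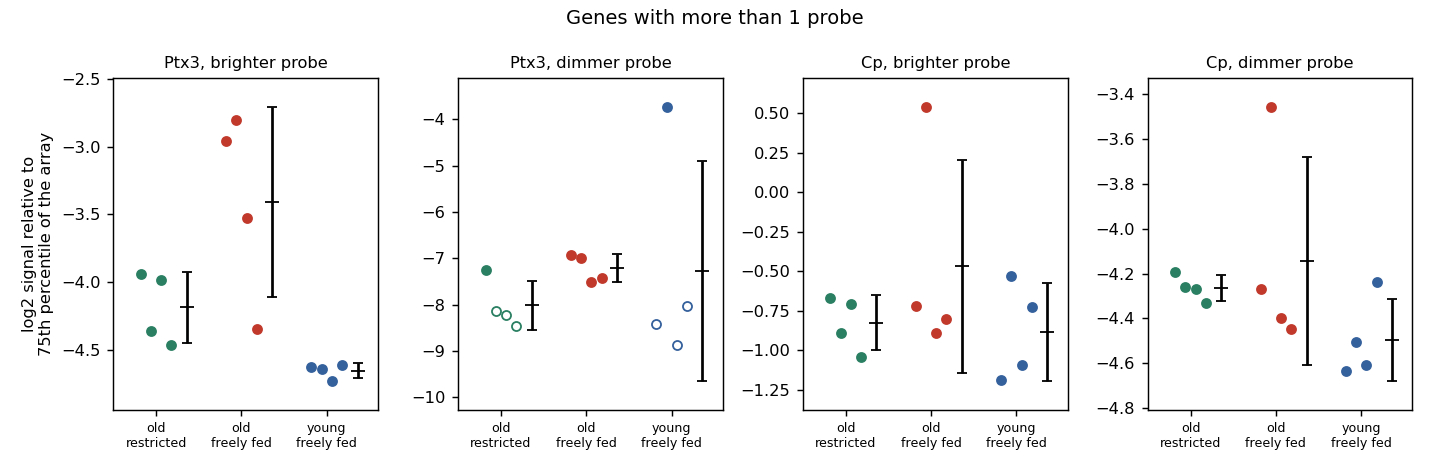
Level on each array of both probes of Cp and both probes of Ptx3, as log2 signal relative to the 75th percentile of the array, with filled points well above background and the mean and SD of the 4 animals as bars. The dimmer Ptx3 probe was open, not well above background, on 3 of 4 old restricted and 3 of 4 young arrays, and young replicate 2 lay at -3.74.

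Cebpd encodes C/EBP delta, a transcription factor that inflammatory signals induce. It lay at 2.25, 1.70, 1.57 and 2.90 in old restricted, at 2.56, 3.12, 2.25 and 1.62 in old freely fed and at 1.57, 1.68, 1.23 and 1.70 in young rats. Both old groups spread widely, each with animals within the young range and animals far above it, and the young range was narrow. The difference with age was 0.84 (interval 0.14 to 1.54, adjusted p = 0.135). With restriction it was -0.28 (-0.99 to 0.42, adjusted p = 0.65), and between old restricted and young rats 0.56 (-0.14 to 1.26, adjusted p = 0.296). Without old freely fed replicate 2 the difference of Cebpd was 0.60 with age and -0.04 with restriction.

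The animals differed among themselves in the set as a whole. Against the mean of the young rats, the median over the 10 genes was 0.03, 0.05, 0.08 and -0.10 in old restricted replicates 1 to 4, and 0.41, 0.99, 0.38 and 0.17 in old freely fed replicates 1 to 4. In young rats it lay between -0.09 and 0.12. Every old freely fed animal thus lay above every other animal on this median, with replicate 4 closest to the rest. Old freely fed replicate 2 was the highest of all 12 animals for 9 of 10 genes, and replicate 1 was the highest for Slpi. Within that group replicate 4 was lowest for 6 genes and replicate 3 for 4.

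**Figure D4:**
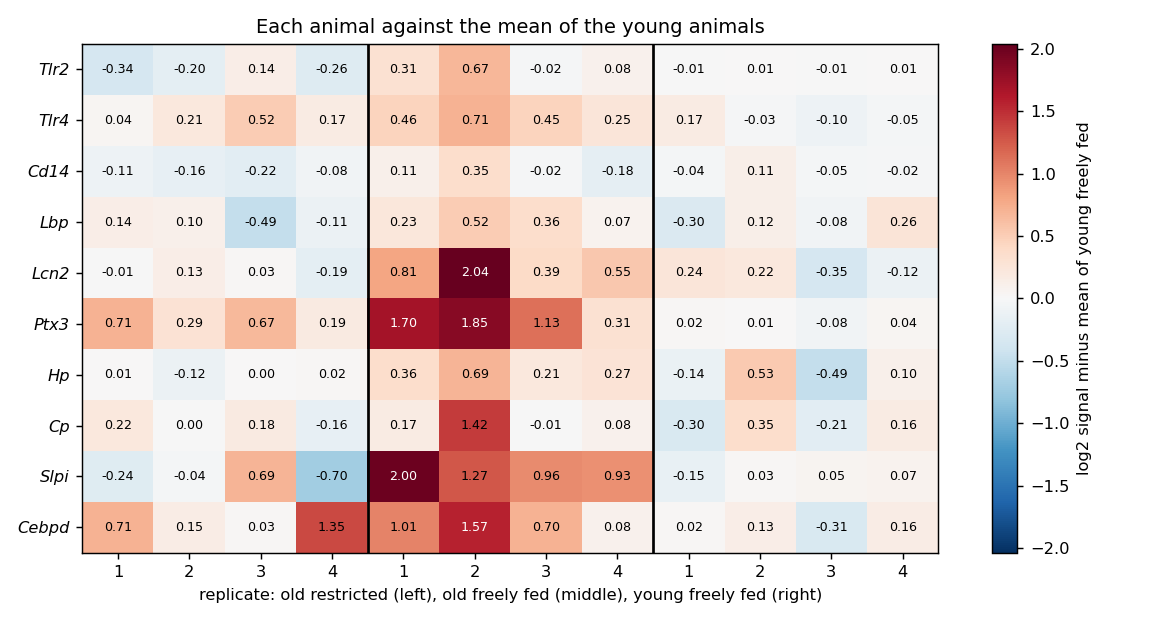
Log2 signal of each gene in each animal minus the mean of the young rats, with the 10 genes in rows and the old restricted, old freely fed and young animals from left to right. Old freely fed replicate 2 has the largest values in 9 of 10 rows, while the columns of old restricted rats hold values of both signs.

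Other genes of the same pathways were taken from 5 lists. Of 18 other Toll receptors and co-receptors 12 were tested, and with age limma called 0 (before adjustment, 7 were higher and 0 lower at p under 0.05). Their median was 0.40, and 0.28 without old freely fed replicate 2. Tlr11, named after its values were seen, was well above background on 4 of 4 old freely fed and 0 of 4 young arrays, and with that gene at the smallest difference its signals allow the median was 0.38. With restriction Cd36, a scavenger receptor and partner of TLR2, fell 1.36-fold (adjusted p = 0.0358), with means of 1.46 ± 0.09 in old restricted and 1.90 ± 0.18 in old freely fed rats. It was the 1 of 12 called, the median was -0.28, and without old freely fed replicate 2 none was called and the median was -0.10. In old restricted against young rats Tlr5, the flagellin receptor, was the 1 of 12 called, 1.68-fold higher (adjusted p = 0.0385), with a list median of 0.07.

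Of 33 adaptors, kinases and NF-kappa-B genes 24 were tested, and with age 2 rose and 0 fell. Ikbke, an IKK-related kinase, rose 1.42-fold (adjusted p = 0.0146), with means of 2.19 ± 0.18 in old freely fed and 1.68 ± 0.07 in young rats, and Irak2, a kinase of the Toll receptor complex, rose 1.23-fold (adjusted p = 0.0442). The list median was 0.10 with age (0.05 and 1 call without old freely fed replicate 2) and -0.02 with restriction, where limma called 0 of 24 (before adjustment, 2 were higher and 3 lower at p under 0.05). Between old restricted and young rats 2 were higher and 1 lower, with a median of 0.07. Chuk, which encodes IKK alpha, was 1.26-fold higher (adjusted p = 0.0137), Sigirr, a brake on Toll signalling, 1.12-fold higher (adjusted p = 0.0406), and Ikbkb, which encodes IKK beta, 1.12-fold lower (adjusted p = 0.0438).

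Of 24 other acute phase proteins 14 were tested, and limma called 0 in every comparison. At an unadjusted p under 0.05, 4 were higher and 2 lower with age, 0 higher and 1 lower with restriction, and 1 higher and 1 lower between old restricted and young rats. Their median was -0.09 with age, -0.04 with restriction and 0.01 between old restricted and young rats. Log2 differences of single genes of the list ran from -0.35 to 1.96 with age and from -1.47 to 0.24 with restriction.

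Of 20 IL-6 type cytokines, receptors, kinases and C/EBP factors 18 were tested. Il6r, the IL-6 receptor chain, rose 1.26-fold with age (adjusted p = 0.02), with means of -1.80 ± 0.07 in old freely fed and -2.13 ± 0.11 in young rats, as the 1 of 18 called, and the median was 0.05 (-0.04 and 1 call without old freely fed replicate 2). Jak2, the kinase that relays cytokine signals, rose 1.26-fold with restriction (adjusted p = 0.00793), again the 1 of 18 called, with a median of 0.01. Between old restricted and young rats Il6r was 1.41-fold higher (adjusted p = 0.00119) and Jak2 1.23-fold higher (adjusted p = 0.00915), with 0 of 18 lower and a median of 0.04.

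The fifth list held 23 partners of the members, genes of iron and copper handling and secreted defence proteins, of which 20 were tested. Slc40a1, which encodes the iron exporter ferroportin, rose 1.55-fold with age (adjusted p = 0.0236) and fell 1.45-fold with restriction (adjusted p = 0.0296), with means of -1.52 ± 0.18 in old restricted, -0.98 ± 0.20 in old freely fed and -1.61 ± 0.16 in young rats. Heph, the membrane-bound relative of ceruloplasmin, rose 1.37-fold with age (adjusted p = 0.0246). These were all the calls of the list, 2 higher with age and 1 lower with restriction, with medians of 0.28 and -0.19, and without old freely fed replicate 2 the counts were the same and the medians 0.09 and -0.10. In old restricted against young rats Heph was 1.26-fold higher (adjusted p = 0.0373), while the ferritin chain Fth1 was 1.12-fold lower (adjusted p = 0.0301) and the copper transporter Atp7b 1.25-fold lower (adjusted p = 0.0436), with a median of 0.07.

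**Figure D5:**
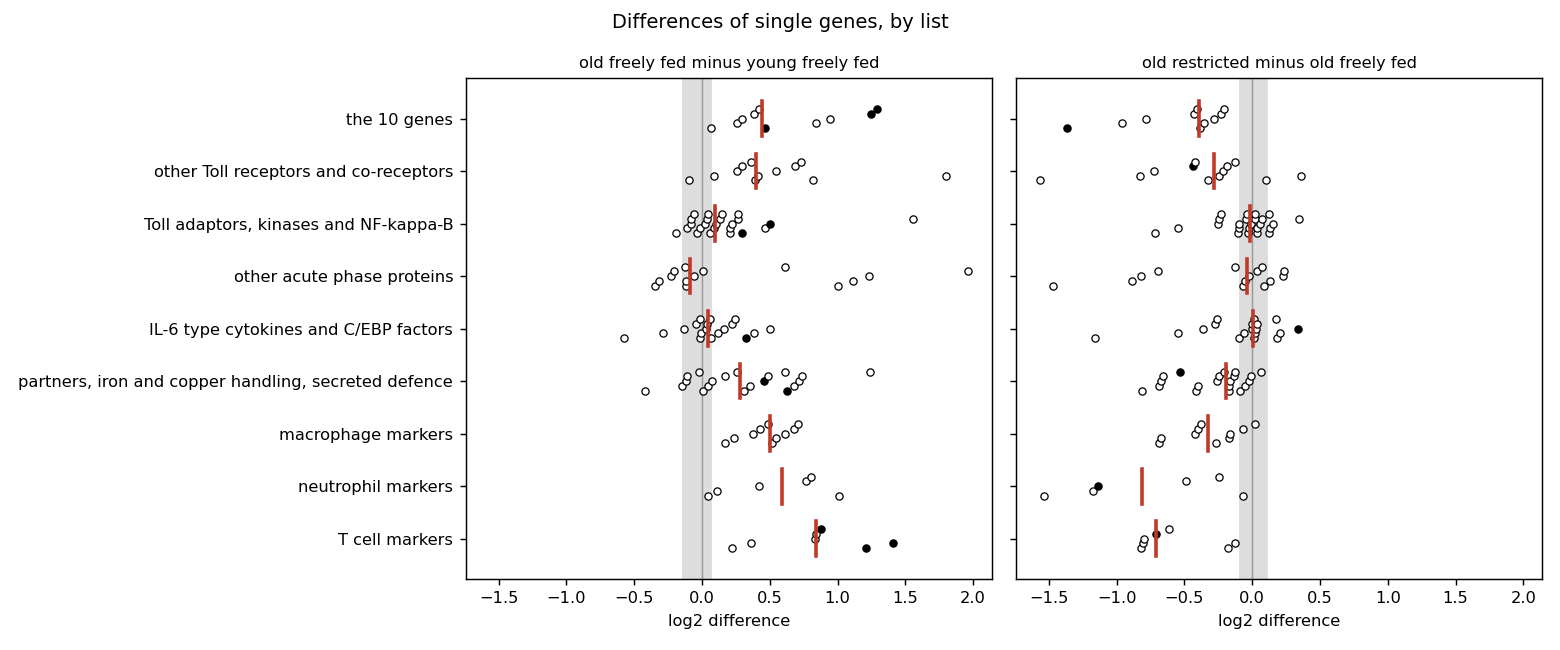
Log2 differences of single genes with age on the left and with restriction on the right, for the 10 genes, the 5 pathway lists and 3 marker lists, where filled points passed the test, red bars are list medians and the grey band holds the middle 50% of all features. The medians of the 10 genes, 0.44 and -0.40, lie outside the band, and those of the acute phase list, -0.09 and -0.04, inside it. The rightmost Toll receptor point with age, Tlr11, was not well above background on any young array.

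Markers of immune cells, which carry many of these genes, differed in level between the same animals. Bladder tissue was measured whole, so more cells of a type and more RNA per cell cannot be told apart. All 10 macrophage markers were above background on all 12 arrays, and their summed level, as a multiple of the 75th percentile, was 42.8 to 57.1 in old restricted, 52.0 to 113.6 in old freely fed and 39.2 to 47.9 in young rats. The highest sum was that of old freely fed replicate 2, 113.6, and the other 3 of its group lay between 51.97 and 62.02. With age limma called 0 of 10 (before adjustment, 5 were higher and 0 lower at p under 0.05), with a median of 0.50, and without that animal 1 was called and the median was 0.24. With restriction limma called 0 of 10 (before adjustment, 0 were higher and 2 lower at p under 0.05), with a median of -0.32, and without that animal 1 was called lower and the median was -0.09.

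Of 10 neutrophil markers 6 were tested, since Elane, Mmp8 and Ltf were below the filter and Mpo matched no probe. The summed level was 0.0827 to 0.116 in old restricted, 0.145 to 0.382 in old freely fed and 0.0905 to 0.183 in young rats, with old freely fed replicate 2 again the highest. With age limma called 0 of 6 (before adjustment, 3 were higher and 0 lower at p under 0.05), with a median of 0.59 and of 0.35 without that animal. Of these 6 markers 2 were well above background on 0 of 4 young arrays, and with those at the smallest difference their signals allow the median was 0.40. With restriction Cxcr2, a chemokine receptor of neutrophils, fell 2.19-fold (adjusted p = 0.0329) as the 1 of 6 called, well above background on 3 of 4 old restricted arrays, with a median of -0.81, and without old freely fed replicate 2 none was called and the median was -0.56.

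T cell markers, 7 of 7 tested, summed to 1.31 to 1.59 in old restricted, 1.70 to 1.96 in old freely fed and 1.03 to 1.34 in young rats. With age 3 of 7 rose, Cd2, Cd3d and Cd5, and 0 fell, and with restriction Cd3d fell 1.64-fold (adjusted p = 0.0156) as the 1 of 7 called. Cd5 was well above background on 2 of 4 young arrays. The median was 0.84 with age and -0.71 with restriction, and without old freely fed replicate 2, which had the lowest T cell sum of its group (1.70), 4 rose with age and 2 fell with restriction, with medians of 0.95 and -0.57. Hepatocyte markers bear on Hp, Cp and Lbp, which the liver makes in large amounts. Alb, Apoa2, Apob and Fga were below the filter, and the 4 tested summed to 0.71 to 0.973 in old restricted, 0.505 to 0.851 in old freely fed and 0.515 to 0.672 in young rats, with 0 called in every comparison. The part of these cell types in the values of the 10 genes was not tested.

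Markers of the bladder's own layers gave few calls. Urothelial markers summed to 293 to 306 in old restricted, 253 to 287 in old freely fed and 286 to 310 in young rats, and with age 1 of 10 was called, Krt5, a keratin of basal cells, 1.58-fold higher (adjusted p = 0.0361). Smooth muscle markers summed to 325 to 384 in old restricted, 263 to 385 in old freely fed and 408 to 429 in young rats, and with age 1 of 8 was called, Myh11, the smooth muscle myosin, 1.19-fold lower (adjusted p = 0.0356), while 7 of 8 were lower before adjustment and the median was -0.32. Without old freely fed replicate 2 limma called 0 urothelial and 0 smooth muscle markers with age. With restriction 0 of 10 and 0 of 8 were called by limma (4 urothelial markers higher and 0 smooth muscle markers at an unadjusted p under 0.05).

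Further marker lists were tested on few genes each. With age the gland genes Andpro and Klk1 were called lower (2 of 2 tested) and the nerve genes Prph and Stmn2 lower (2 of 6), and with restriction Pecam1, an endothelial adhesion molecule, was called lower (1 of 4). Without old freely fed replicate 2, 1 gland gene and 1 nerve gene were called lower with age, and with restriction 0 endothelial markers and 1 nerve gene were called, the nerve gene lower. Limma called none of the 5 fibroblast, 3 mesothelial and 2 adipocyte markers in any comparison, though 4 fibroblast markers were lower with age and 2 adipocyte markers lower with restriction at an unadjusted p under 0.05. In old restricted against young rats 0 of 10 macrophage and 0 of 6 neutrophil markers were called by limma (1 and 0 higher, and 0 and 0 lower, before adjustment), and Cd2 was the 1 of 7 T cell markers called, 1.51-fold higher (adjusted p = 0.0379). In that comparison Krt5 was 2.01-fold higher (adjusted p = 0.0032) as the 1 of 10 urothelial markers called, Des, the muscle filament desmin, 1.34-fold lower (adjusted p = 0.0355) as the 1 of 8 smooth muscle markers, and Cdh5, an endothelial cadherin, 1.27-fold lower (adjusted p = 0.0196) as the 1 of 4 endothelial markers. Andpro and Klk1 (2 of 2) and the nerve genes Nefl and Stmn2 (2 of 6) were called lower there too.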

How the data were processed

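Total RNA from bladder body was labelled with Cy3 and hybridised to 1-colour Agilent rat arrays, per the labels' protocols. The deposited values are spot intensities that Agilent Feature Extraction 10.7 had background-corrected within each array, per the file headers, on a design of genome build rn4. The table of the whole series held the same values as the processed signal (100% of spots, tolerance 1e-06, relative). Processed signals were scaled to the 75th percentile of each array's 58717 non-control spots and taken to log2, and 0 spots were saturated. Spots were averaged per probe without those marked as outliers, unless a probe had no other (91 averages). Probes were named through their RefSeq accession with a table of the GRCr8 assembly, used for names and for the printed start regions, and 17998 of 30367 probes (59.3%) were named. A probe was kept if some group had it well above background on all of its 4 arrays, and each gene was read from its brightest kept probe, leaving 20426 features.

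Linear models were fitted with limma 3.58 in R 4.3 to all 12 arrays without covariates (eBayes with a brightness trend; degrees of freedom were 9 residual and 2.72 prior). Tests were two-sided, and p-values were adjusted by Benjamini-Hochberg over all features, with 0.05 as the threshold. The p-values measure the spread between animals, pooled over the 3 groups. The steps were tested on simulated data. No 2 arrays held the same values.

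The 10 genes, the 5 pathway lists (118 genes) and the 13 marker lists (92 genes) were chosen with earlier results of these data known. The text names all 10 genes with every probe, up to 4 called genes of each pathway list and up to 2 called genes of each marker list in each comparison, by smallest adjusted p, for the lists it describes, and Cd5 besides, named after its values were seen. Alternatives covered scaling, background correction, filters on dim probes, choice of probe, the brightness trend, the arrays fitted, replicate number as a block and leaving out each animal. The result of 1 marker list is not reported here. Where a list gene was not well above background anywhere in 1 group, its smallest difference was found by raising each dim value to the dimmest signal that array measured well above background, if it lay lower, before averaging, with 0 as the limit.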

Additional observations from a re-analysis of the deposited data

Results flagged for a closer look

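In 4 of 36 groups of 4 animals (12 probes in 3 groups), 1 animal lay far from the other 3 of its group by Dixon's test, and chance gives about 1 in 20. Old freely fed replicate 2 had a Cp level of 0.5392 by the brighter probe, against -0.89 to -0.72 in the other 3. Young replicate 2 had a level of -3.737 by the dimmer Ptx3 probe, against -8.88 to -8.04 in the other 3, of which none was well above background. Young replicate 2 also had the highest Cd14 level of its group, 0.1815, against 0.02 to 0.04. Old restricted replicate 2 had the lowest Hp level of its group, -5.826, against -5.70 to -5.69.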

How the results depend on the processing

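Over the log2 differences of the 10 genes and all alternatives, 658 values kept their direction and their side of the threshold, 40 lost a call, 1 gained a call (Ptx3 with restriction, without old freely fed replicate 4) and 18 changed sign. In the fit of age to the 2 groups compared, 0 of the 10 genes and 94 features were called, and in that of restriction 0 of the 10 and 478 features, with fewer arrays for the error. Without each animal in turn, 0 to 3 of the 10 genes and 121 to 921 features were called with age, 0 to 2 and 268 to 847 with restriction, and 0 and 742 to 2079 between old restricted and young rats. Features called with age (332 higher and 428 lower) numbered 412 with normexp and quantile scaling, 440 without the brightness trend and 3568 with no filter on dim probes, which gave 3259 between old restricted and young rats. The causes were not tested. Tlr4 missed the threshold with normexp (adjusted p = 0.0518) and without the trend (0.0597), and Ptx3 with the mean over probes and with its dimmer probe. Same-numbered animals did not deviate together (r = -0.19 to 0.0951 over 12 pairs), and with the replicate block 1 of the 10 genes (Ptx3) and 498 features were called with age. Sign changes concerned differences that were not called. Without each animal in turn the difference of Cd14 with age was -0.030 to 0.15, below 0 without old freely fed replicate 2. The rest lay between old restricted and young rats, where such leave-outs gave -0.043 to 0.18 for Cp, -0.18 to 0.16 for Hp, -0.19 to 0.043 for Lbp, -0.13 to 0.070 for Lcn2 and -0.33 to 0.14 for Slpi. There Hp also gave 0.033 with quantile scaling, 0.031 with normexp and 0.057 with both, Lcn2 gave 0.041 with quantile scaling and 0.0053 with median centring, and Ptx3 gave -0.14 with the mean over probes and -0.75 with the dimmer probe. Normexp was run on median spot signals, a choice made after seeing the files, since the files held no mean signals. The filter to all 12 arrays left Lcn2 out. Signal over background limits Lcn2 and the dimmer Ptx3 probe.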
